A study of Neurospora crassa OR74A with 3 samples.

Results

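The 5 core histone genes of the filamentous fungus Neurospora crassa were followed across 3 strains kept on cellobiose: hH3 (NCU01635), hH4-1 (NCU01634), hH4-2 (NCU00212), hH2A (NCU02437) and hH2B (NCU02435). They were chosen by identifier, and are 5 of the 9730 genes in the read-count tables. Averaged over the libraries, all 5 reached 10 CPM (gene reads scaled to the depth of a library). So did 6545 genes in all, the deleted ones aside, and these were compared. mRNA was measured by RNA sequencing of mycelia, with 1 library per strain.

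The strain with the most deletions, Δ3βGΔcdt2Δncu05853, lacks cdt-2, a gene for a transporter of cellodextrins, and NCU05853, the clp1 gene for a protein resembling such transporters. Δ3βGΔncu05853 lacks NCU05853 but holds cdt-2. Δ3βG, the parent, holds both genes. All 3 strains lack 3 genes for β-glucosidases, which split cellobiose into glucose. Growth in sucrose lasted 16 h and was followed by 4 h in 2% cellobiose, and libraries from before the transfer or from another sugar were not analysed here. The labels describe no replicate cultures. The differences below thus have no check against replicates, and no test across replicates was possible. Intervals are 95% counting intervals and say nothing of the spread between cultures.

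Core histones package DNA. A nucleosome holds H3 and H4 as a central tetramer, with H2A and H2B joined to it as dimers, and linker histone H1 binds where DNA enters and leaves. The bulk of core histones is made while DNA is copied, so in many eukaryotes their mRNAs are abundant in dividing cells and scarce in resting ones. N. crassa, unlike animals with their long arrays of histone genes, has few copies, and hH3 and hH4-1 are known as a divergently transcribed pair. hH4-1 and hH4-2 are known to encode the same protein.

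The libraries had 9808610 gene reads in Δ3βGΔcdt2Δncu05853, 9465639 in Δ3βGΔncu05853 and 8586155 in Δ3βG. clp1 had 0 reads in Δ3βGΔcdt2Δncu05853 and 2 in Δ3βGΔncu05853, against 4190 in Δ3βG. cdt-2 had 9 reads in Δ3βGΔcdt2Δncu05853, against 2842 in Δ3βGΔncu05853 and 1907 in Δ3βG. The β-glucosidase gene gh1-1 (NCU00130), which all 3 strains should lack, had 0 reads in Δ3βGΔcdt2Δncu05853, 47 in Δ3βGΔncu05853 and 18 in Δ3βG. The other two β-glucosidase genes were gh3-4 (NCU04952), with 13 reads in Δ3βGΔcdt2Δncu05853, 14 in Δ3βGΔncu05853 and 5 in Δ3βG, and gh3-3 (NCU08755), with 21 in Δ3βGΔcdt2Δncu05853, 14 in Δ3βGΔncu05853 and 15 in Δ3βG. Where these reads came from was not tested, and further differences between the strains cannot be told apart from the named deletions. Markers of conidia and aerial hyphae, other cell types a mycelial culture can hold, together took 0.569% of gene reads in Δ3βGΔcdt2Δncu05853, against 20.5% in Δ3βGΔncu05853 and 19.5% in Δ3βG. The hydrophobin gene eas (NCU08457), 1 of these markers, alone took 0.305% of gene reads in Δ3βGΔcdt2Δncu05853, against 20.0% in Δ3βGΔncu05853 and 18.7% in Δ3βG. Without eas, their summed level was 3165 CPM after TMM scaling in Δ3βGΔcdt2Δncu05853, 4631 in Δ3βGΔncu05853 and 7543 in Δ3βG. These sums hold acu-6, an enzyme gene matched only through a synonym. It gave 43.1 CPM in Δ3βGΔcdt2Δncu05853, 534 in Δ3βGΔncu05853 and 1479 in Δ3βG. Of the 13 markers, 4 had log2 ratios above 0 in Δ3βGΔcdt2Δncu05853 against Δ3βG on that scale. None of the 13 was at 0 reads in any library. Their part in the results below was not tested, and in such bulk samples fewer cells of a type cannot be told apart from less RNA per cell.

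All 5 core histone genes were among the most abundant mRNAs of the fungus in every library. Levels are given here as the deposited RPKM, reads per kilobase of exon scaled to all reads in the file. That unit corrects for length and allows genes to be compared within a library. hH3, which encodes a partner in the central tetramer, had the highest level in each library, with 1679 RPKM in Δ3βGΔcdt2Δncu05853, 2759.7 in Δ3βGΔncu05853 and 2279.7 in Δ3βG. Ranked among all genes it stood in place 33 in Δ3βGΔcdt2Δncu05853, 5 in Δ3βGΔncu05853 and 6 in Δ3βG. hH2B, one side of the outer dimers, was second of the 5 in each library, at 1043 RPKM in Δ3βGΔcdt2Δncu05853, 1475 in Δ3βGΔncu05853 and 1377 in Δ3βG.

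hH2A, the partner of hH2B, had 842 RPKM in Δ3βGΔcdt2Δncu05853, 984 in Δ3βGΔncu05853 and 1003 in Δ3βG. hH4-1 had 767 RPKM in Δ3βGΔcdt2Δncu05853, 1072 in Δ3βGΔncu05853 and 1031 in Δ3βG. These genes followed next, and their order differed: hH2A was above hH4-1 in Δ3βGΔcdt2Δncu05853 and below it in Δ3βGΔncu05853. In Δ3βG their counting intervals overlapped (984 to 1022 for hH2A, 1013 to 1048 for hH4-1). No other neighbours in the order overlapped in any library. hH4-2, the second gene for H4, was lowest throughout, with 406 RPKM in Δ3βGΔcdt2Δncu05853, 678 in Δ3βGΔncu05853 and 654 in Δ3βG, and still ranked in place 140 in Δ3βGΔcdt2Δncu05853, 46 in Δ3βGΔncu05853 and 43 in Δ3βG.

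**Figure D1:**
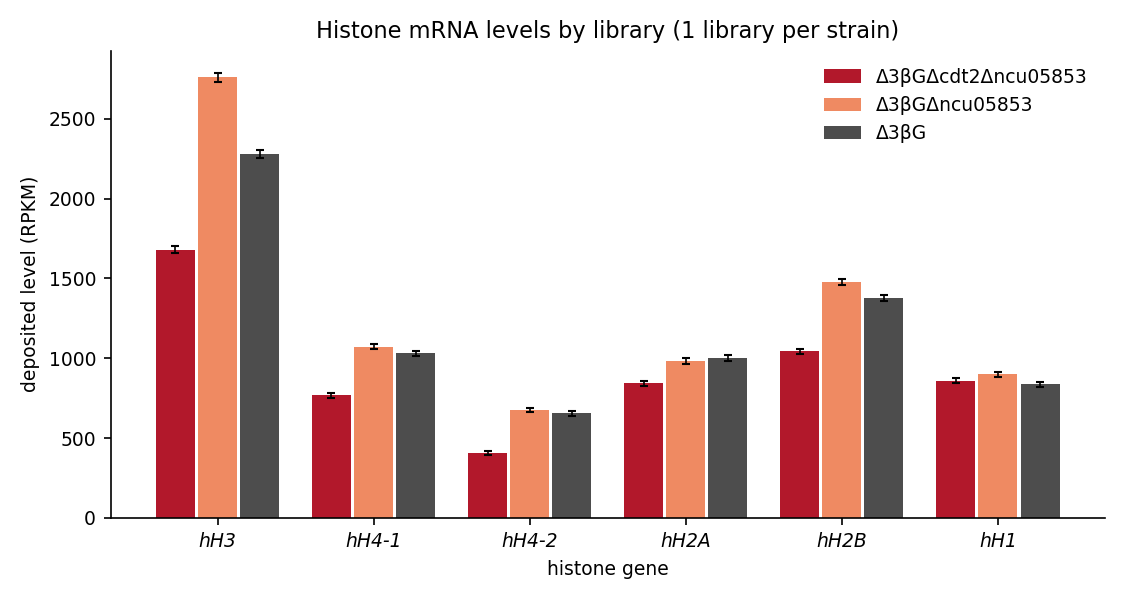
Deposited RPKM of the 5 core histone genes and the linker histone gene hH1 (horizontal axis) in the 3 libraries, with bars for 1 library per strain and error bars for 95% Poisson counting intervals. hH3 is the tallest in every library, and the Δ3βGΔcdt2Δncu05853 bar is the lowest of each core gene, whereas the hH1 bars lie between 836 and 899 RPKM.

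As a share of gene reads, the 5 genes together took 0.681% in Δ3βGΔcdt2Δncu05853 (exact interval 0.675% to 0.686%), 1.08% in Δ3βGΔncu05853 (1.07% to 1.08%) and 1.01% in Δ3βG (1.001% to 1.015%). Shares and RPKM both divide by a total, which a few very abundant genes can move. The eas gene, with the shares given above, is such a gene. For comparisons between strains, counts were scaled with TMM factors, which are set by the bulk of genes. TMM scaling is not a correction for eas. In Δ3βGΔcdt2Δncu05853 against Δ3βG the median log2 ratio of the 5 was -0.56 on library totals and -0.16 under TMM. Leaving eas out of the totals moved that median the other way, to -0.86. The result for Δ3βGΔcdt2Δncu05853 depended on that choice, as given below.

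Loss of NCU05853 alone went with little difference in the core histone mRNAs. The first comparison set Δ3βGΔncu05853 against Δ3βG. Of the 5 genes, 0 were at least 2-fold apart, where 1.24% of the 6545 genes compared were: 0.565% higher and 0.672% lower. hH3 differed most, with 3958 TMM-scaled CPM in Δ3βGΔncu05853 and 3333 in Δ3βG, 1.19-fold higher (1.17 to 1.21). hH2B had 2311 CPM in Δ3βGΔncu05853 and 2199.7 in Δ3βG, 1.05-fold higher (1.03 to 1.07). hH2A was the 1 member with a log2 ratio below 0, with 1119 CPM in Δ3βGΔncu05853 and 1162 in Δ3βG, a fold of 0.962 (0.937 to 0.988).

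The H4 genes had nearly the same levels in these libraries. hH4-1 had 1439 CPM in Δ3βGΔncu05853 and 1410.1 in Δ3βG, a fold of 1.02 (0.997 to 1.04). hH4-2 had 1058 CPM in Δ3βGΔncu05853 and 1041 in Δ3βG, also a fold of 1.02 (0.989 to 1.04). Both intervals included a ratio of 1. The median log2 ratio of the 5 was 0.03, beside 0.00 over all genes, whose quartiles were -0.16 and 0.19. hH3, at 0.25, lay above 81.1% of all genes compared, while the other members lay between 40.6% and 60.3%.

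With cdt-2 also deleted, the core histone mRNAs again stayed within 2-fold of Δ3βG under TMM, as did 65.2% of all genes. The second comparison set Δ3βGΔcdt2Δncu05853 against Δ3βG. On the TMM scale 0 of the 5 were at least 2-fold apart, where 34.8% of genes were: 19.4% higher and 15.4% lower. hH4-2 differed most, with 777 CPM in Δ3βGΔcdt2Δncu05853 and 1041 in Δ3βG, a fold of 0.746 (0.723 to 0.770). hH3 had 2953 CPM in Δ3βGΔcdt2Δncu05853 and 3333 in Δ3βG, a fold of 0.886 (0.871 to 0.901). hH4-1, its neighbour in the genome, had 1262 CPM in Δ3βGΔcdt2Δncu05853 and 1410.1 in Δ3βG, a fold of 0.895 (0.872 to 0.919).

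The H2A and H2B genes lay closest to the parent. hH2B had 2004 CPM in Δ3βGΔcdt2Δncu05853 and 2199.7 in Δ3βG, a fold of 0.911 (0.892 to 0.930). hH2A had 1174 CPM in Δ3βGΔcdt2Δncu05853 and 1162 in Δ3βG, a fold of 1.01 (0.982 to 1.04), and its interval alone included a ratio of 1. The median log2 ratio of the 5 was -0.16, beside -0.03 over all genes, whose quartiles were -0.66 and 0.73. Members lay above 33.8% (hH4-2) to 52.0% (hH2A) of all genes.

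**Figure D2:**
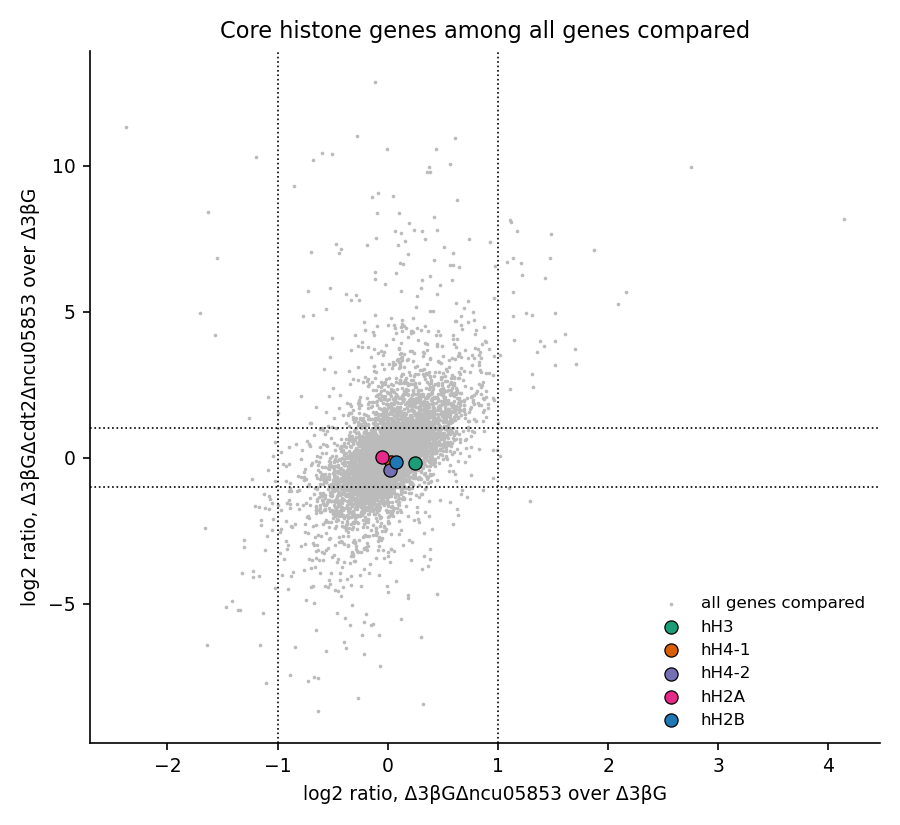
Log2 ratios of Δ3βGΔncu05853 over Δ3βG (horizontal) and of Δ3βGΔcdt2Δncu05853 over Δ3βG (vertical) for the 6545 genes compared (grey), with the 5 core histone genes in colour and dotted lines at 2-fold. The axes share the Δ3βG library, so the shape of the grey cloud is not read as a result. The members lie between -0.06 and 0.25 across and between -0.42 and 0.01 upwards, inside all dotted lines.

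How far the genes stood below Δ3βG depended on the scaling. Under TMM and under median-of-ratios size factors, hH2A was just above 0 (0.01 under each) and the other 4 below. Scaled on all reads in the file, as the deposited RPKM are, the 5 ranged from -0.69 to -0.25 with a median of -0.43, and the median of all genes was -0.30. Scaled on library totals they ranged from -0.83 to -0.39 with a median of -0.56, and the median of all genes was -0.44. Scaled on totals without eas they ranged from -1.12 to -0.68, and hH4-2 alone was then at least 2-fold lower, where 38.4% of all genes were lower and 10.6% higher. The median of the 5 lay 0.13 below the median of all genes. A change of scaling shifts every gene of a comparison alike, so differences between medians are fixed by construction and say nothing of stability.

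**Figure D3:**
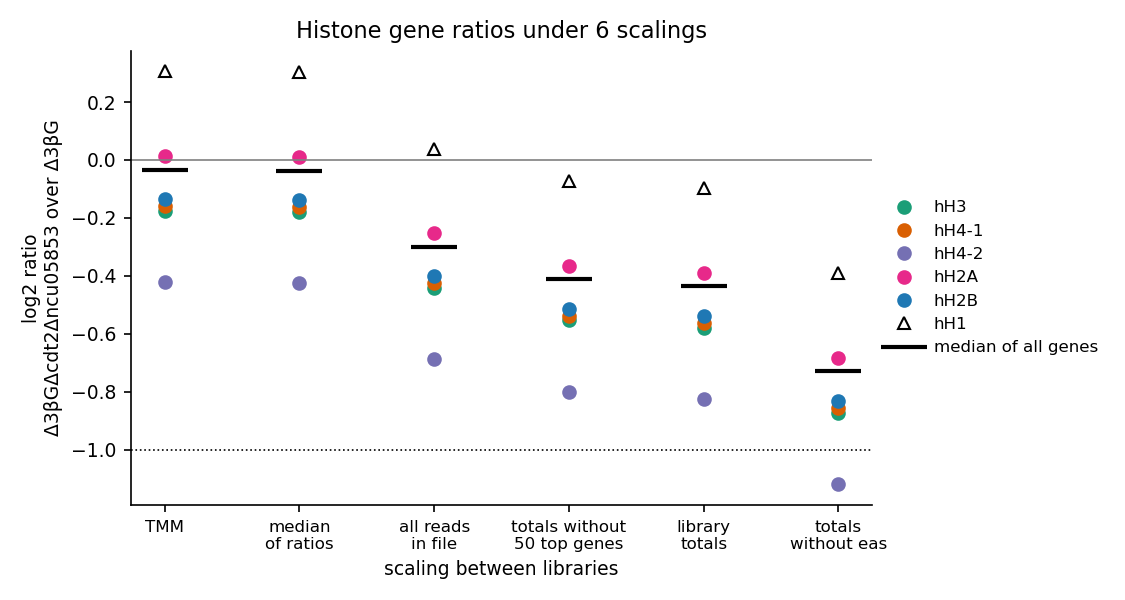
Log2 ratio of Δ3βGΔcdt2Δncu05853 over Δ3βG (vertical axis) for the 5 core histone genes (filled points), hH1 (open triangles) and the median of all genes (bars) under 6 scalings (horizontal axis). The whole set moves down together from TMM to totals without eas, where hH4-2 reaches -1.12, since a scaling shifts all genes alike.

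The third comparison set Δ3βGΔcdt2Δncu05853 against Δ3βGΔncu05853, and shares a library with each of the others. Of the 5 members 0 were at least 2-fold apart under TMM, where 28.5% of genes were: 16.5% higher and 11.9% lower. hH4-2 had 777 CPM in Δ3βGΔcdt2Δncu05853 and 1058 in Δ3βGΔncu05853, a fold of 0.734 (0.712 to 0.757). hH3 had 2953 CPM in Δ3βGΔcdt2Δncu05853 and 3958 in Δ3βGΔncu05853, a fold of 0.746 (0.734 to 0.758). The fold was 0.867 for hH2B (0.850 to 0.885), 0.877 for hH4-1 (0.855 to 0.900) and 1.05 for hH2A (1.02 to 1.08). The median log2 ratio was -0.21, beside -0.04 over all genes. On totals without eas hH3 and hH4-2 were past 2-fold, at -1.13 and -1.15, and the median of all genes was -0.74, with 37.5% of genes at least 2-fold lower and 8.5% higher.

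In rank, the core histone genes stood lower among abundant genes in Δ3βGΔcdt2Δncu05853. In Δ3βG, 43 genes stood at or above the RPKM of hH4-2, the 5 members among them. Of these 43, 23 were within 2-fold between Δ3βGΔcdt2Δncu05853 and Δ3βG, 6 were higher and 14 lower. The shares over all genes compared, on the TMM scale, were 65.2%, 19.4% and 15.4%. In Δ3βGΔcdt2Δncu05853, 140 genes stood at or above hH4-2 there. Of these 140, 102 were at least 2-fold higher than in Δ3βG, beside 19.4% of all genes. The 140 are a set that was chosen by its level in Δ3βGΔcdt2Δncu05853. Between Δ3βGΔncu05853 and Δ3βG all 43 were within 2-fold, as were 98.8% of all genes.

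Ratios between histone mRNAs inside a library do not depend on any scaling between libraries. Per length, hH3 stood above the sum of both H4 genes, at 1.43 in Δ3βGΔcdt2Δncu05853 (1.40 to 1.46), 1.58 in Δ3βGΔncu05853 (1.55 to 1.60) and 1.35 in Δ3βG (1.33 to 1.38). hH2A stood below hH2B, at 0.807 in Δ3βGΔcdt2Δncu05853 (0.787 to 0.828), 0.667 in Δ3βGΔncu05853 (0.653 to 0.682) and 0.728 in Δ3βG (0.712 to 0.745). In both ratios the 3 libraries differed by more than counting error, and Δ3βGΔncu05853 lay at one end, with the highest hH3 and the lowest hH2A relative to their partners. The H2A and H2B genes together stood at 0.661 of the H3 and H4 genes in Δ3βGΔcdt2Δncu05853 (0.651 to 0.671), 0.545 in Δ3βGΔncu05853 (0.538 to 0.552) and 0.600 in Δ3βG (0.592 to 0.609). This pooled ratio was not planned beforehand, and it is built from the same genes as the ratios before it. Exon lengths enter as deposited and are the same in each library.

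The share of H4 mRNA that came from hH4-2 was lower in 1 library. Per length it was 34.6% in Δ3βGΔcdt2Δncu05853 (33.9% to 35.3%), against 38.7% in Δ3βGΔncu05853 (38.1% to 39.3%) and 38.8% in Δ3βG (38.2% to 39.4%). Reads that align to several places made up 2.48% of all reads in Δ3βGΔcdt2Δncu05853, 4.91% in Δ3βGΔncu05853 and 6.36% in Δ3βG, and they are not in the gene counts. How many of them came from stretches that the H4 genes share was not tested.

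**Figure D4:**
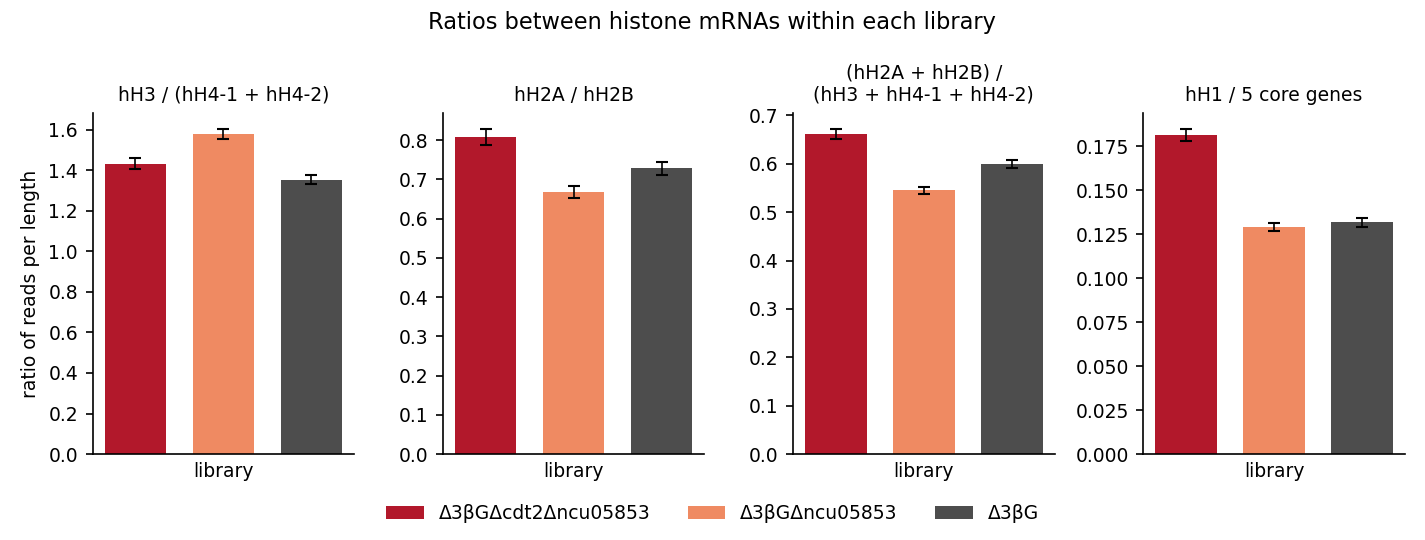
Ratios of reads per length between histone genes within each library, from left to right hH3 over both H4 genes, hH2A over hH2B, the H2A and H2B genes over the H3 and H4 genes, and hH1 over the 5 core genes, with 95% counting intervals and 1 library per bar. Δ3βGΔncu05853 is highest in the first panel and lowest in the next 2, and Δ3βGΔcdt2Δncu05853 is highest in the last, at 0.181.

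The linker histone gene hH1 (NCU06863) had a higher ratio of Δ3βGΔcdt2Δncu05853 to Δ3βG than any core gene. The core genes themselves ranged from -0.42 to 0.01 in log2 ratio under TMM. It had 1578 TMM-scaled CPM in Δ3βGΔcdt2Δncu05853, 1347 in Δ3βGΔncu05853 and 1277 in Δ3βG. Against Δ3βG that is a fold of 1.24 in Δ3βGΔcdt2Δncu05853 (1.21 to 1.27) and 1.05 in Δ3βGΔncu05853 (1.03 to 1.08). Its log2 ratio for Δ3βGΔcdt2Δncu05853 against Δ3βG was 0.31 under TMM, -0.10 on library totals and -0.39 on totals without eas. The ratio of hH1 to the core genes, chosen after seeing the data, involves no scaling between libraries. Per length, hH1 stood at 0.181 of the 5 core genes together in Δ3βGΔcdt2Δncu05853 (0.178 to 0.185), 0.129 in Δ3βGΔncu05853 (0.127 to 0.131) and 0.132 in Δ3βG (0.129 to 0.134).

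The histone variant genes were far less abundant than the core genes and lay close to Δ3βG under TMM. hH2Az (NCU05347), for the H2A variant that is known in other eukaryotes to sit at the starts of genes, had 30.8 RPKM in Δ3βGΔcdt2Δncu05853, 35.0 in Δ3βGΔncu05853 and 33.7 in Δ3βG. Per length it stood at 0.0366 of hH2A in Δ3βGΔcdt2Δncu05853 (0.0346 to 0.0387), 0.0355 in Δ3βGΔncu05853 (0.0337 to 0.0374) and 0.0336 in Δ3βG (0.0318 to 0.0355). This ratio was not planned beforehand. The deposited exon length is 4228 bases for hH2Az and 1062 for hH2A. Without length correction the ratio was 0.146 in Δ3βGΔcdt2Δncu05853, 0.141 in Δ3βGΔncu05853 and 0.134 in Δ3βG. hH3v (NCU00145), the centromeric H3, had 24.3 RPKM in Δ3βGΔcdt2Δncu05853, 27.5 in Δ3βGΔncu05853 and 27.7 in Δ3βG. The variant gene hH4v (NCU04338) had 22.3 RPKM in Δ3βGΔcdt2Δncu05853, 28.6 in Δ3βGΔncu05853 and 24.2 in Δ3βG. All 4 genes outside the core set lay within 2-fold in every comparison under TMM, as did most genes. The share of all genes was 98.8% for Δ3βGΔncu05853 against Δ3βG. It was 65.2% for Δ3βGΔcdt2Δncu05853 against Δ3βG and 71.5% for Δ3βGΔcdt2Δncu05853 against Δ3βGΔncu05853. In Δ3βGΔcdt2Δncu05853 against Δ3βG all 4 had log2 ratios above 0 under TMM (0.08 to 0.31), and all 4 were below 0 on library totals. Their median lay 0.31 above that of the core genes.

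Genes next to the core histone genes were set beside them. hH3 and hH4-1 neighbour each other in the RefSeq table, and hH2A and hH2B are separated there by NCU02436, which had 0 reads in Δ3βGΔcdt2Δncu05853, 2 in Δ3βGΔncu05853 and 2 in Δ3βG. On the outer sides, NCU01636 beside hH3 had a log2 ratio of 0.39 in Δ3βGΔcdt2Δncu05853 against Δ3βG, and NCU00213 beside hH4-2 had -0.71. NCU16562, beside hH4-1, had 23 reads in Δ3βGΔcdt2Δncu05853, 7 in Δ3βGΔncu05853 and 3 in Δ3βG, a fold of 8.88 in Δ3βGΔcdt2Δncu05853 against Δ3βG (2.68 to 46.2). The neighbours NCU11174, NCU11258 and NCU02434 overlap hH4-2, hH2A and hH2B in that table, with log2 ratios of -0.29, -0.01 and -0.09. The sources used here do not say whether counting used strand, so reads of these overlaps cannot be told apart, and the counts of these 3 histone genes are uncertain to that extent.

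The pattern of the core genes over the 3 libraries was common. Likeness was measured as the distance between a gene's pair of log2 ratios over Δ3βG and the median pair of the 5 members. hH4-1 supplies that median pair, hH2B lay 0.05 from it, hH2A 0.19, hH3 0.22 and hH4-2 0.26. Of the 6540 other genes, 1043 lay nearer than hH4-2 and 39 nearer than hH2B. The 8 nearest were stk-19 (NCU02245), NCU00171, NCU08517, NCU05314, NCU00362, NCU16497, NCU01762 and NCU06145, at distances of 0.005 to 0.018 over 3 libraries.

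The core histone mRNAs lay between other gene lists that bear on growth. Histones are needed for DNA copying, whereas ribosomal proteins and elongation factors are needed for protein synthesis. In Δ3βGΔcdt2Δncu05853 against Δ3βG, 13 of 15 genes of translation were at least 2-fold higher and 1 was lower, beside 19.4% and 15.4% of all genes, with a median log2 ratio of 1.73. Of 9 genes of DNA replication and nucleotide supply, 3 were at least 2-fold lower and 0 passed 2-fold upwards, beside 15.4% and 19.4% of all genes, with all 9 below 0 and a median of -0.66. Relative to the median of the core histone genes, the translation list stood 1.89 higher and the replication list 0.50 lower. In Δ3βGΔncu05853 against Δ3βG neither list had a gene 2-fold apart, beside 1.24% of all genes, with medians of 0.08 for translation and -0.06 for replication.

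The ribosomal protein gene po (NCU07408) had 3426 reads in Δ3βGΔcdt2Δncu05853, 737 in Δ3βGΔncu05853 and 626 in Δ3βG, a log2 ratio of 2.66 for Δ3βGΔcdt2Δncu05853 against Δ3βG. The ribosomal protein gene crp-10 (NCU00489) stood at 2.52. The list was matched by symbol and holds genes that are not parts of the ribosome, such as cpc-1 (NCU04050), known for a transcription factor of amino acid synthesis, at 1.12. cpc-3 (NCU01187), known for a kinase that senses amino acid shortage, stood at 0.01, and un-17 (NCU08983) was the 1 lower gene, at -1.56. On totals without eas the translation median was 1.03, where 8 of 15 genes passed 2-fold upwards and 1 downwards, beside 10.6% and 38.4% of all genes.

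Among replication genes, polh (NCU01936), for a DNA polymerase that copies past damage, was 1 of the 3 lower genes and stood at -1.71. pcn (NCU09239), for the sliding clamp of DNA polymerase, had 220 reads in Δ3βGΔcdt2Δncu05853, 794 in Δ3βGΔncu05853 and 754 in Δ3βG, at -1.56. rpa-1 (NCU03606) and rpa-2 (NCU07717) were the highest of that list, at -0.28 and -0.24. On totals without eas 7 of the 9 were at least 2-fold lower, beside 38.4% of all genes. The list was matched by symbol, and some of its members, such as un-7 and the polymerase genes polh and poli, are not parts of the replication fork.

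Of 4 genes of the cell cycle, 3 were at least 2-fold lower in Δ3βGΔcdt2Δncu05853 against Δ3βG, beside 15.4% of all genes. The cyclin-dependent kinase gene cdc28 (NCU09778) stood at -1.14, nim-1 (NCU03187) at -1.05 and stk-29 (NCU04326) at -1.004, while cdc15 (NCU01335) stood at 0.48. The counting intervals of the 3 lower genes included folds on both sides of the 2-fold limit, with upper bounds of 0.504 for cdc28, 0.548 for nim-1 and 0.572 for stk-29. Against Δ3βGΔncu05853, 0 of the 4 were at least 2-fold apart in Δ3βGΔcdt2Δncu05853 under TMM, beside 28.5% of all genes, with a median of -0.72. On totals without eas 3 of the 4 were at least 2-fold lower in that comparison, beside 37.5% of all genes. In Δ3βGΔncu05853 against Δ3βG all 4 were below 0 and 0 were 2-fold apart, beside 1.24% of all genes, with a median of -0.27.

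**Figure D5:**
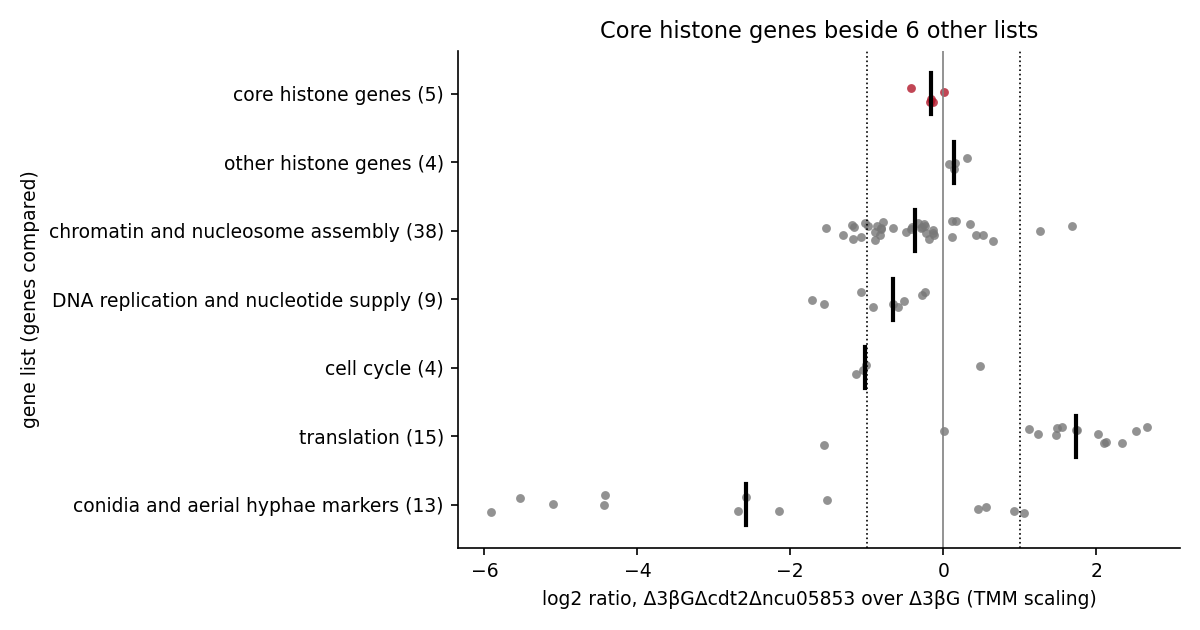
Log2 ratios of Δ3βGΔcdt2Δncu05853 over Δ3βG under TMM (horizontal axis) for each gene of 7 lists (vertical axis, with the number of genes compared), where black bars are medians and dotted lines mark 2-fold. The core histone genes, in red, lie within 0.42 of 0, right of the replication and cell cycle medians (-0.66 and -1.03) and left of the translation median (1.73).

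A list of chromatin genes, matched by symbol or synonym, was set beside the core genes too. Of 42 genes of chromatin and nucleosome assembly, 38 averaged 10 CPM or more. In Δ3βGΔcdt2Δncu05853 7 of these were at least 2-fold lower than in Δ3βG and 2 at least 2-fold higher, beside 15.4% and 19.4% of all genes. The median log2 ratio was -0.37, with 29 below 0, and it lay 0.21 below that of the core histone genes. On totals without eas 20 of the 38 were at least 2-fold lower and 0 higher, beside 38.4% and 10.6% of all genes. Lowest were crf8-1 (NCU07556) at -1.53 and the histone deacetylase gene hda-1 (NCU01525) at -1.31. Highest were set-6 (NCU09495) at 1.68 and pmg (NCU03509) at 1.26. However, pmg was matched only through its synonym nap-2, and whether it acts on histones or chromatin was not checked. Against Δ3βG, Δ3βGΔncu05853 had 0 of the 38 at least 2-fold apart, beside 1.24% of all genes, and a median of -0.02.

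Histone chaperones, which carry histones and help place them on DNA, were singled out from that list by their role after their values were seen. cac-1 (NCU04198), for the large subunit of chromatin assembly factor 1, had 323 reads in Δ3βGΔcdt2Δncu05853, 744 in Δ3βGΔncu05853 and 850 in Δ3βG, with a log2 ratio of -1.18 for Δ3βGΔcdt2Δncu05853 against Δ3βG. Its partners cac-2 (NCU08357) and cac-3 (NCU06679) stood at -0.25 and -0.98. The chaperone gene asf-1 (NCU09436) stood at -0.89 and nap-1 (NCU03815) at -1.20. Of these 5 genes 2 were at least 2-fold lower under TMM, beside 15.4% of all genes. pmg, matched as nap-2 and at 1.26, was not counted among them. Being picked late, the 5 are not read as a result about chaperones.

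The markers of conidia and aerial hyphae had the lowest median of the 7 lists in Δ3βGΔcdt2Δncu05853 against Δ3βG. Of the 13, 9 were at least 2-fold lower and 1 at least 2-fold higher, beside 15.4% and 19.4% of all genes, with a median of -2.58. On totals without eas 9 were lower and 0 higher, beside 38.4% and 10.6% of all genes, with a median of -3.28. con-13 (NCU07324) stood at -5.91 and eas at -5.53, while al-2 (NCU00585) stood at 1.05 and con-8 (NCU09235) at 0.92. The list counts acu-6 (NCU09873), matched through its synonym con-3, which encodes an enzyme of gluconeogenesis. In Δ3βGΔncu05853 against Δ3βG 12 of the 13 were below 0. The 1 gene among them past 2-fold was acu-6, at -1.47, beside 0.672% of all genes at least 2-fold lower.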

How the data were processed

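RNA sequencing of mycelia from 3 strains gave 1 library each. The authors deposited read counts per gene, made with TopHat and HTSeq per the submitters' processing notes; the sources used here name no version, genome build, annotation or strand setting. The authors also deposited RPKM values, scaled on all reads in the file: values recomputed from the counts and the deposited exon lengths differed by at most 1.93e-08 of the value. Per the file headers, exon length was a column of each file. Reads that name no gene (8.53% to 16.8% of all reads) were left out of library sizes.

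TMM factors from edgeR 4.0.16 (R 4.3.3) scaled the counts, with 0.833 for Δ3βGΔcdt2Δncu05853, 1.09 for Δ3βGΔncu05853 and 1.10 for Δ3βG. DESeq2 1.42.0 gave the median-of-ratios size factors of an alternative. Log2 ratios carry a prior of 0.5 counts. Folds carry none, and have exact 95% intervals (Clopper-Pearson, conditional on both counts); levels have exact Poisson intervals. Ratios within a library use summed reads at fixed length weights. Reads copied by PCR are not independent molecules, so intervals cover counting error only. Compared were genes whose mean CPM, on library totals, was 10 or more, without the 5 deleted genes. Scaling and ratios were run on simulated Poisson counts in which equal numbers of genes were raised and lowered. That balanced setting differs from these data, so it cannot show which scaling is right here.

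A RefSeq table of assembly NC12 gave the symbols and matched 9729 of 9730 identifiers. Its gene positions were used only to find neighbours and overlaps, and no sequences were analysed here. The members, lists and rules were chosen with earlier results of these data known. Named are the members, genes with a histone symbol, neighbours, the 8 genes nearest in pattern, and the 2 highest and 2 lowest of each list in Δ3βGΔcdt2Δncu05853 against Δ3βG. Exceptions, chosen after their values were seen, are the chaperone genes cac-1, cac-2, cac-3, asf-1 and nap-1, and un-7, poli, acu-6 and cpc-1. The search for histone-like proteins by sequence was not run.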

Additional observations from a re-analysis of the deposited data

How the results depend on the processing

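Scaling decided how the core histone genes of Δ3βGΔcdt2Δncu05853 compared with the other libraries. Their median log2 ratio against Δ3βG was -0.16 under TMM, -0.56 on library totals, -0.43 on all reads in the file, -0.54 without the 50 genes with most counts and -0.86 without eas. Against Δ3βGΔncu05853 it was -0.21 under TMM and -0.59, -0.50, -0.61 and -0.91 on those scales. Without eas, 1 member was at least 2-fold apart against Δ3βG and 2 against Δ3βGΔncu05853, in place of 0. Median-of-ratios size factors and a prior of 5 counts left all these within counting error, and no scaling took the median of Δ3βGΔncu05853 against Δ3βG outside it. Of the log2 ratios of single members under these alternatives, 48 stayed within the counting interval of the TMM value and 42 did not.

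Counts over all genes moved as follows. In Δ3βGΔcdt2Δncu05853 against Δ3βG, 1267 higher genes became 697 without eas and 1985 with no filter, and 1008 lower genes became 1765 on library totals, 1713 without the 50 top genes, 2515 without eas and 1607 with no filter. Against Δ3βGΔncu05853, 1082 higher became 556 without eas and 1749 with no filter, and 782 lower became 1541, 1571, 2455 and 1315 on those settings and 1301 on all reads. In Δ3βGΔncu05853 against Δ3βG, 37 higher and 44 lower became 115 and 100 at a mean of 1 CPM, and 342 and 301 with no filter.

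Without length correction hH2A stood at 0.586, 0.484 and 0.528 of hH2B in Δ3βGΔcdt2Δncu05853, Δ3βGΔncu05853 and Δ3βG, hH4-2 gave 38.1%, 42.4% and 42.5% of H4 reads, and hH1 stood at 0.193, 0.136 and 0.140 of the core genes, a ratio chosen after seeing the data. No paired analysis was possible because each strain had 1 library, and no library could be left out for the same reason.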
